A study of Rattus norvegicus with 9 samples.

Results

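Fibronectin, tenascin C, tenascin N, periostin, Sparc, thrombospondins 1 and 2, elastin, fibrillin 1 and fibulin 5 were followed in primary rat osteoblasts treated with thrombin, alone or with an inhibitor of the kinase MEK. The 10 genes (Fn1, Tnc, Tnn, Postn, Sparc, Thbs1, Thbs2, Eln, Fbn1 and Fbln5) were chosen by name, each stood on 1 row of the deposited table of 19085 genes, and all 10 were among the 13256 genes with enough counts for a test. The study sequenced polyadenylated RNA from osteoblasts after 7 days of osteogenic induction in 3 groups of 3 libraries. The Control group received induction medium alone, the Thrombin group received 20 U/mL thrombin in that medium, and the PD03 group received 20 U/mL thrombin together with PD0325901 (PD03), the MEK inhibitor. The cells of all groups were first-passage calvarial cells of newborn male Sprague-Dawley rats, and all were induced with β-glycerophosphate, ascorbic acid and dexamethasone in serum-containing medium. No group received PD03 without thrombin, so its effect was measured only in the presence of thrombin. By the series' design text PD03 was used at 0.1 μM, although 1 label protocol has 0.1 mM. Knee is entered as tissue in the labels, where the growth protocol in them names the calvaria. The paper calls the 3 samples of a group independent. Whether they came from separate animals is not stated, so p-values measure the spread between these samples, which may be technical.

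Matricellular proteins are secreted into the extracellular matrix and modulate how cells attach to it and how growth factors reach them, rather than bearing load as collagens do. Fibronectin is laid down early as a scaffold on which other matrix proteins assemble, and tenascins, periostin, Sparc and thrombospondins act on that scaffold and on integrins. Elastic fibres consist of an elastin core on microfibrils of fibrillin, and fibulin 5 helps to deposit elastin on them. In bone, Sparc (osteonectin) binds collagen and calcium, and periostin marks the periosteum and connective tissue under load.

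Total counts lay between 15447832 and 19841468 per library, and Col1a1, encoding a collagen chain, held 6.78% to 6.96% of each PD03 library against 4.18% to 5.05% of the other 6. Of 9 osteoblast markers, 6 were tested. The collagens Col1a1 and Col1a2 were abundant and the osteoblast regulator Runx2 was present at 42.8 ± 2.38 CPM in the control group, but the mature osteoblast genes Bglap and Ibsp reached no more than 5 and 1 counts in any library, and the alkaline phosphatase gene Alpl no more than 62. Of the 6 tested, 3 were called higher and 1 lower with PD03 against thrombin, beside 9.61% and 6.31% of all genes. Runx2 had 51.1 ± 2.37 CPM with thrombin and 32.1 ± 2.70 with PD03, whereas Col1a1 had 42854 ± 1703 and 72132 ± 988.9. With thrombin against control 1 was called lower, and with PD03 against control 2 were called higher (5.44% and 4.9% of all genes). Of the markers of other cell types, 7 of 9 myeloid and 4 of 6 adipocyte genes fell below the filter, and 2 of 8 endothelial genes were tested. Summed myeloid markers were 20.8 to 23.8 CPM in control, 29.2 to 32.8 with thrombin and 17.6 to 19.3 with PD03, endothelial markers 6.69 to 7.96, 6.42 to 8.57 and 11.1 to 12.8 CPM, and adipocyte markers 202 to 213, 98.3 to 104 and 156 to 166 CPM. These sums were mostly 1 gene each. Cd14 held 20.5 ± 1.78, 29.3 ± 1.74 and 15.7 ± 0.4375 CPM of the myeloid sum, Tek 6.46 ± 0.461, 6.17 ± 0.906 and 9.51 ± 0.576 CPM of the endothelial sum, and Lpl 207 ± 5.67, 99.6 ± 3.03 and 158 ± 5.43 CPM of the adipocyte sum. Smooth muscle and pericyte markers, which osteoblast cultures also express in part, had summed levels of 1394 to 1583 CPM (control), 1401 to 1514 CPM (thrombin) and 2977 to 3068 CPM (PD03), and 4 of the 6 tested were called higher with PD03 than with thrombin, beside 9.61% of all genes. Tendon and cartilage markers summed to 148.8 to 159.2, 108.8 to 119.8 and 271.1 to 283.4 CPM in the same order of groups. Of 7 tested, 6 were called higher and 1 lower with PD03 against control, beside 4.9% and 4.07% of all genes. With PD03 against thrombin 3 were higher and 1 lower (9.61% and 6.31% of all genes), and with thrombin against control 3 and 2 (2.62% and 5.44%). Tnmd had 46.2 ± 1.38, 24.8 ± 2.63 and 176 ± 2.25 CPM in control, thrombin and PD03. Scx had 4.81 ± 0.701, 12.8 ± 1.33 and 7.75 ± 0.4515 CPM and was called lower with PD03 than with thrombin. Col2a1 had 84.4 ± 4.92, 49.2 ± 2.655 and 56.4 ± 3.05 CPM and was called lower with PD03 than in control. The MEK inhibitor was checked on 14 genes known to respond to MEK and ERK signalling. Of these, 11 were lower and none higher with PD03 than with thrombin (adjusted p under 0.05 and absolute log2 fold change above 0.58, beside 6.31% of all tested genes called lower). With thrombin against control 2 of them were called higher and none lower (2.62% and 5.44% of all genes). With PD03 against control none was called higher and 11 lower (4.9% and 4.07%). The transcription factor gene Egr1 had 243 ± 68.7 CPM with thrombin and 18.7 ± 1.33 CPM with PD03, Phlda1 at 105 ± 6.62 and 16.3 ± 3.21 CPM, and the Ets factor gene Etv4 at 14.5 ± 0.653 and 2.37 ± 0.430 CPM. In the control group Egr1 had 339 ± 45.4 CPM, Phlda1 53.4 ± 3.06 CPM and Etv4 14.1 ± 1.965 CPM.

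Compared per gene length, 5 of the 10 genes were among the most abundant transcripts of these cells, and elastin stood near the middle of the table. In the deposited FPKM values (fragments per kilobase of gene, scaled to library size), Fn1 ranked 11th of all genes in the control group at 2016 ± 53.0 FPKM (SD, n = 3), followed by Sparc at 1902 ± 75.7, Tnc at 1429 ± 20.2, Thbs1 at 1251 ± 34.4 and Thbs2 at 839 ± 11.3 FPKM. Fbn1 (170 ± 0.541 FPKM) and Tnn (149 ± 2.78 FPKM) formed a middle level, and Fbln5 (67.1 ± 3.04 FPKM) and Postn (36.2 ± 1.55 FPKM) a lower one. Eln stood at 2.35 ± 0.170 FPKM in the control group and ranked 9898th, far below the other two elastic fibre genes, Fbn1 and Fbln5. No neighbours in the control order overlapped between libraries, though Fn1 (1958 to 2061 FPKM) and Sparc (1815 to 1953 FPKM) came close.

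The order at the top differed in each group. In the thrombin group Tnc led with 1806 to 1844 FPKM, Fn1 followed with 1743 to 1848 FPKM, Sparc with 1716 to 1757 FPKM and Thbs1 with 1614 to 1776 FPKM, and each of these ranges overlapped that of the next gene. In the PD03 group Sparc led alone with 2578 to 2630 FPKM, and Tnc (1689 to 1841 FPKM) and Fn1 (1512 to 1557 FPKM) came after it. Thbs1 (1234 to 1373 FPKM) and Thbs2 (1252 to 1287.5 FPKM) overlapped in the PD03 group, whereas in the thrombin group Thbs2 stood at 725 to 753 FPKM. In raw counts, the 10 genes together took 4.80% ± 0.0957 of all counts in the control group, 5.11% ± 0.0364 in the thrombin group and 5.22% ± 0.131 in the PD03 group. The share was higher in every thrombin library than in any control library, and likewise in the PD03 libraries, by 0.314 and 0.425 percentage points, with an exact permutation p of 0.1 each (two-sided, adjusted p = 0.15 over 3 comparisons). With 3 libraries against 3, 0.1 is the smallest p this test allows. The thrombin and PD03 shares overlapped in raw counts (difference 0.111 percentage points, exact permutation p = 0.4). They did not overlap as shares of summed FPKM (2.31% to 2.33% with thrombin and 2.54% to 2.69% with PD03) or with Col1a1 taken out of the total (5.31% to 5.37% and 5.45% to 5.72%).

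**Figure D1:**
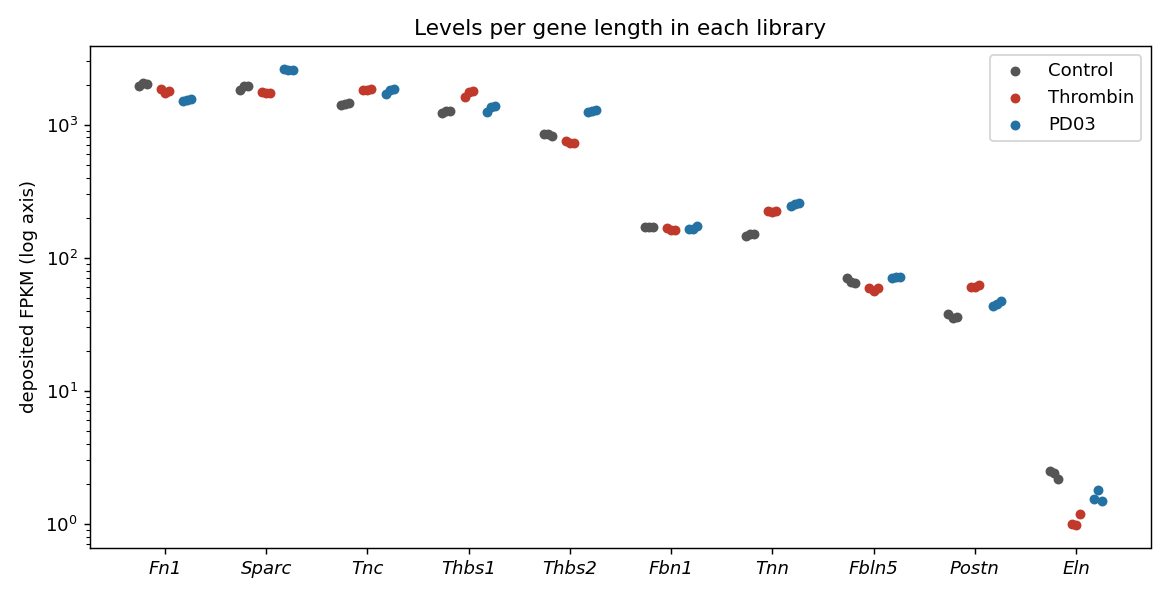
Deposited FPKM of each gene in each of the 9 libraries, on a log axis, with genes ordered by their mean in the control group and one point per library. Fn1, Sparc, Tnc, Thbs1 and Thbs2 lie at 725 FPKM or more in all libraries and Eln at 2.49 FPKM or less.

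Sequences just before the start site are given for Thbs1, Tnc, Tnn and Postn, whose transcripts were higher with thrombin, and for Sparc, which rose with PD03, so that the regions can be set beside the values. They are the 250 bases before the start in RefSeq (rat assembly GRCr8), 5′ to 3′ on the gene's strand. RefSeq sequences were matched for 7 of the 10 genes, and Fn1, Thbs2 and Eln had no entry. Capitals mark matches, on either strand, to 5 motifs that were searched: the core promoter motif TATAAA, the TEAD motif CATTCC, the AP-1 motif TGANTCA, the Ets motif CCGGAA, and the CArG box of serum response factor.
Thbs1 (chr3:125510000-125510249, plus strand): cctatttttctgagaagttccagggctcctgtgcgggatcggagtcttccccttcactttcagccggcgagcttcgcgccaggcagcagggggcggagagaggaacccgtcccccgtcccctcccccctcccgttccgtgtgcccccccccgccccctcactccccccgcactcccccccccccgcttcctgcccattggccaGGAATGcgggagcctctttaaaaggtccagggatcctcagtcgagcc
Tnc (chr5:82476132-82476381, minus strand): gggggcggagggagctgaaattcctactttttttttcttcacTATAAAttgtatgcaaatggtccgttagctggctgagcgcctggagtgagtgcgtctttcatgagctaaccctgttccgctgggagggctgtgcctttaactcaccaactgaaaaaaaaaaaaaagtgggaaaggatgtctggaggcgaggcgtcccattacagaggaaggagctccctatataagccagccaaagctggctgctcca
Tnn (chr13:74919790-74920039, minus strand): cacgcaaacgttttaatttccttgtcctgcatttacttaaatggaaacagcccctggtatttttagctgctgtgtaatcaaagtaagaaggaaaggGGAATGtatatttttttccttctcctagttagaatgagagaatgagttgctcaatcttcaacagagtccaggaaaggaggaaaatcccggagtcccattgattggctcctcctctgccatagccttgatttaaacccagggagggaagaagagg
Postn (chr2:140677811-140678060, plus strand): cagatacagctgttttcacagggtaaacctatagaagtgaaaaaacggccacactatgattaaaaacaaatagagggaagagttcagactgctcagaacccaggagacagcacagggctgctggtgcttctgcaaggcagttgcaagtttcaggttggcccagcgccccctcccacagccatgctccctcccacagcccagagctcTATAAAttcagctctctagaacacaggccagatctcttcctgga
Sparc (chr10:40038817-40039066, minus strand): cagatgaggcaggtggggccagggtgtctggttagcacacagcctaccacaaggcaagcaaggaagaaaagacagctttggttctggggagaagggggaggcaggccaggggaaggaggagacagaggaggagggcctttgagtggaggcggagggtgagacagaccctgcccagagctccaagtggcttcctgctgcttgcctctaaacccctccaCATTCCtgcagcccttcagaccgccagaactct
Thbs1, Tnn and Sparc each held CATTCC or its reverse complement once, with the first base at -47, -154 and -33 relative to the start, and 12.1% of the 33469 promoters in the table held it. Tnc and Postn each held TATAAA once, at -208 and -44, beside 12.9% of all promoters. None of the 7 sequences held the AP-1, Ets or CArG letters, which 6.34%, 12.6% and 1.5% of all promoters held. A match describes letters in a window and not a site in use.

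Of the 10 genes, thrombin raised Tnn and Postn and lowered Eln past both thresholds (adjusted p under 0.05 and absolute log2 fold change above 0.58, edgeR's quasi-likelihood test). Of all tested genes, 8.06% were called in that comparison, 2.62% higher and 5.44% lower. By the adjusted p alone, 4 of the 10 genes were higher with thrombin (Tnc, Tnn, Postn and Thbs1), 5 were lower (Fn1, Sparc, Thbs2, Eln and Fbln5), and Fbn1 did not pass, where 28.7% of all genes passed, 14.1% higher and 14.6% lower. In 9 of the 10 genes the thrombin and control libraries did not overlap, against 40.3% of all genes. The genes were deeply counted, apart from Eln, so small differences passed the test, and the median log2 fold change of the 10 was -0.08 beside -0.01 for all genes. In cultures of mixed cells, more cells of a type and more RNA per cell cannot be told apart.

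**Figure D2:**
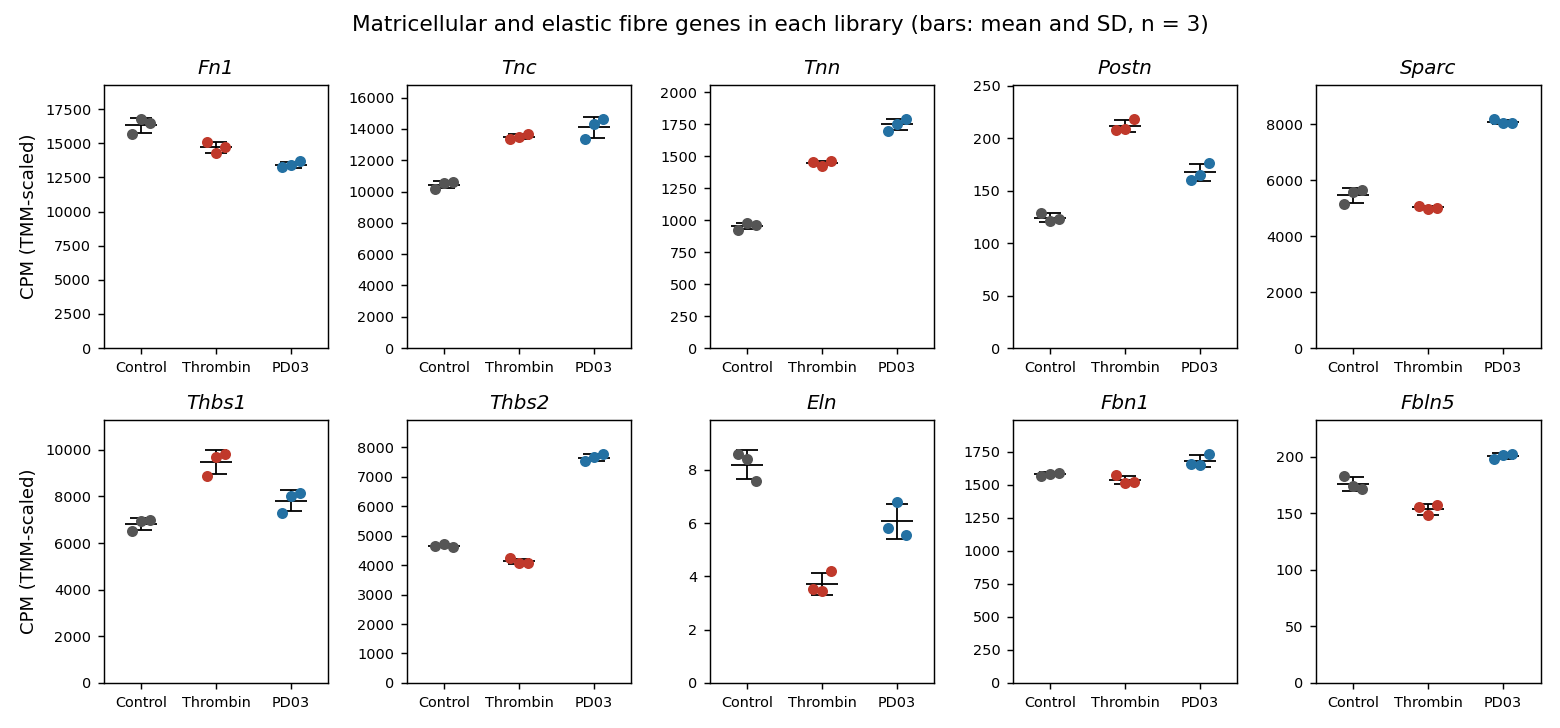
TMM-scaled CPM of the 10 genes in each library, one panel per gene with an axis that starts at 0, and bars for the mean and SD of 3 libraries. Thbs2 and Sparc stand highest in the PD03 libraries, Postn and Thbs1 in the thrombin libraries, and Eln in the control libraries.

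With PD03 against thrombin, Sparc, Thbs2 and Eln rose past both thresholds and none of the 10 genes fell past them, beside 15.9% of all genes called, 9.61% higher and 6.31% lower. The share of called genes that were higher was 60.4% over all genes, but 46.5% when libraries were scaled by their totals alone. By the adjusted p alone, 6 of the 10 were higher and 3 lower (over all genes 25.3% and 24.5%, together 49.8%). The groups did not overlap in 9 of the 10 (55.5% of all genes), and the median log2 fold change of the 10 was 0.20 beside 0.01 for all genes. With PD03 against control, Tnn and Thbs2 were called higher and none lower, where 8.97% of all genes were called, 4.9% higher and 4.07% lower. By the adjusted p alone 8 of the 10 were higher and 2 lower (over all genes 19.7% and 20.2%, together 39.9%), all 10 showed no overlap (47.8% of all genes), and the median was 0.31 beside -0.004 for all genes. Scaling by library totals lowered the median of all genes by 0.12 in this last comparison, and the call counts of the 10 genes did not change with it. By the adjusted p alone, Fbn1, for example, no longer passed against control with library totals (edgeR, adjusted p = 0.43). The absence of overlap also depended on the scaling. In FPKM, PD03 and control overlapped for Thbs1, Fbn1 and Fbln5, and PD03 and thrombin overlapped for Fbn1. The 3 comparisons share libraries, so each gene's values are given side by side.

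**Figure D3:**
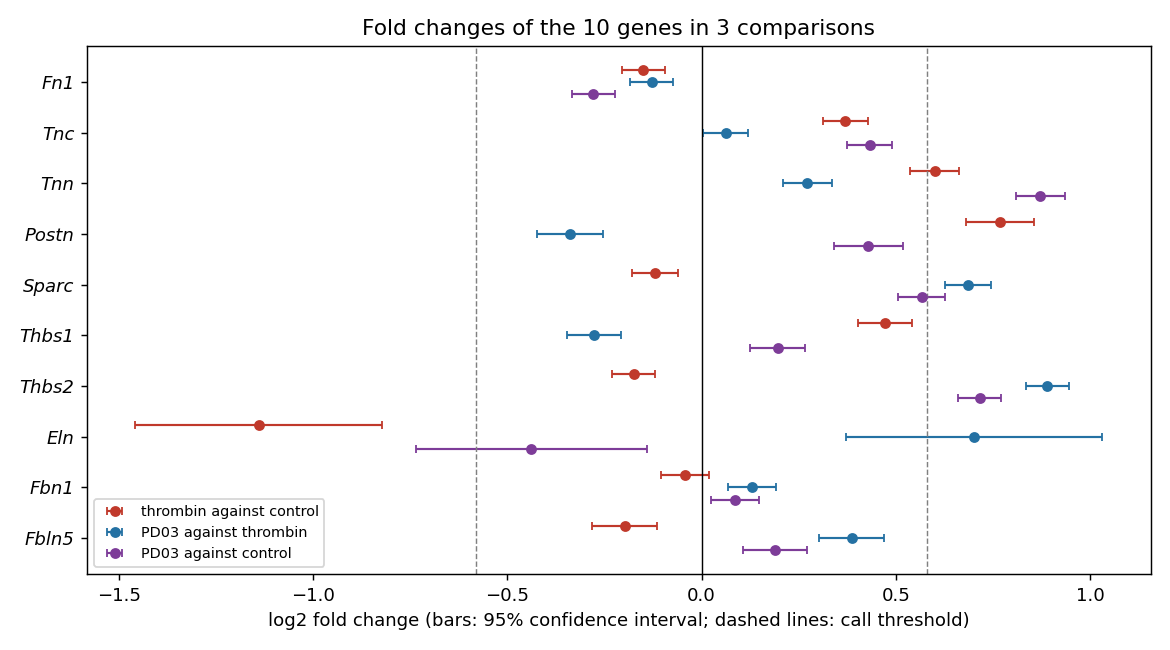
Log2 fold changes of the 10 genes in the 3 comparisons, with 95% confidence intervals that are not adjusted for the number of genes, and dashed lines at the call threshold of 0.58 in either direction. Intervals are narrow for every gene but Eln, and only Tnn, Postn, Sparc, Thbs2 and Eln have a point past a dashed line.

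Fibronectin, the scaffold of the early matrix and a ligand of α5β1 integrin, was lower in each treated group. Fn1 (ENSRNOG00000014288) measured 15657, 16753 and 16497 CPM in the control libraries, 15089, 14248 and 14737 CPM in the thrombin libraries and 13240, 13391 and 13680 CPM in the PD03 libraries. Every thrombin library lay below every control library and above every PD03 library. The log2 fold change was -0.15 with thrombin (SE 0.03, adjusted p = 3.1e-05), -0.13 with PD03 against thrombin (adjusted p = 0.00013) and -0.28 with PD03 against control (adjusted p = 3.2e-11), all within the fold threshold.

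Tenascin C, a large multi-armed glycoprotein that weakens adhesion to fibronectin, was higher than in control in both groups that received thrombin. Tnc (ENSRNOG00000058645) measured 10160, 10552 and 10610 CPM in the control libraries, 13324, 13500 and 13661 CPM with thrombin and 13362, 14296 and 14613 CPM with PD03. The thrombin and PD03 libraries overlapped, and both lay above all control libraries. The log2 fold change was 0.37 with thrombin (SE 0.03, adjusted p = 3.1e-14) and 0.43 with PD03 against control (adjusted p = 1.9e-16). Between PD03 and thrombin it was 0.06 (95% interval 0.005 to 0.12, adjusted p = 0.066), and it turned to -0.04 when libraries were scaled by their totals.

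Tenascin N (tenascin W), a related protein found in bone and periosteum, was higher with thrombin and higher again with PD03. Tnn (ENSRNOG00000002548) measured 926, 976 and 966 CPM in the control libraries, 1457, 1427 and 1461 CPM with thrombin and 1702, 1756 and 1790.5 CPM with PD03, and no 2 groups overlapped. It rose 1.52-fold with thrombin (log2 fold change 0.60, SE 0.03, adjusted p = 1.2e-19), and the PD03 group stood 1.83-fold above control (log2 0.87, adjusted p = 4.7e-25). PD03 against thrombin gave a log2 fold change of 0.27 (SE 0.03, adjusted p = 8.0e-10), under the fold threshold. The call with thrombin was close to the threshold and was lost without Control replicate 1 (log2 fold change 0.578), from FPKM with 1 added (0.5797), and when glmTreat of edgeR required the change to exceed the threshold (adjusted p = 1).

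Periostin, a fasciclin-domain protein of periosteum and tendon, had its highest level with thrombin alone. Postn (ENSRNOG00000012660) measured 129, 121 and 123 CPM in the control libraries, 207, 209 and 218 CPM with thrombin and 161, 165 and 177 CPM with PD03, again without overlap between groups. It rose 1.70-fold with thrombin (log2 fold change 0.77, SE 0.04, adjusted p = 1.3e-18). With PD03 it was lower than with thrombin (log2 -0.34, SE 0.04, adjusted p = 6.6e-09) and remained above control (log2 0.43, adjusted p = 6.8e-11), both within the fold threshold.

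Sparc, which binds collagen and calcium, responded to PD03 much more than to thrombin. Sparc (ENSRNOG00000012840) measured 5158, 5597 and 5643 CPM in the control libraries, 5100, 4985 and 5006 CPM with thrombin and 8185, 8040 and 8050 CPM with PD03. The PD03 libraries lay far above the rest, and the highest thrombin library lay just below the lowest control library. PD03 raised Sparc 1.61-fold over thrombin (log2 fold change 0.69, SE 0.03, adjusted p = 7.0e-23), while thrombin against control gave a log2 fold change of -0.12 (adjusted p = 0.0015). Against control, the PD03 group had a log2 fold change of 0.57 (adjusted p = 9.3e-20), just inside the fold threshold, and 0.583 without Control replicate 3, where it was called.

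The thrombospondins 1 and 2, trimeric relatives that bind CD47 and CD36 and restrain blood vessel growth, moved in opposite directions in both comparisons with the thrombin group. Thbs1 (ENSRNOG00000045829), which can also activate latent TGF-β, measured 6538, 6943 and 6996 CPM in the control libraries, 8892, 9699 and 9823 CPM with thrombin and 7289, 8022 and 8138.5 CPM with PD03. No groups overlapped. Thrombin gave it a log2 fold change of 0.47 (SE 0.03, adjusted p = 6.9e-15), PD03 against thrombin one of -0.28 (adjusted p = 6.3e-09) and PD03 against control one of 0.20 (adjusted p = 1.1e-05), none past the fold threshold.

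Thbs2 (ENSRNOG00000010529), which also binds and clears matrix proteases, measured 4652, 4722 and 4618 CPM in the control libraries, 4227, 4079 and 4090 CPM with thrombin and 7537, 7659 and 7777 CPM with PD03. The thrombin libraries were the lowest and the PD03 libraries the highest. PD03 raised Thbs2 1.85-fold over thrombin (log2 fold change 0.89, SE 0.03, adjusted p = 4.3e-28) and 1.64-fold over control (log2 0.72, adjusted p = 3.3e-24), and thrombin alone gave a log2 fold change of -0.17 (adjusted p = 2.0e-06). Of the 13256 tested genes, 6.02% had a larger rise with PD03 against thrombin. The smooth muscle markers Acta2 and Tagln were also higher with PD03 (1457 ± 17.1 against 526 ± 19.1 CPM, and 1346 ± 27.4 against 769 ± 41.9 CPM with thrombin), and their part in the rise of Thbs2 and Sparc was not tested.

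Among the elastic fibre genes, elastin fell with thrombin to 0.454 of its control level, while fibrillin 1 showed small differences. Eln (ENSRNOG00000001469), which encodes the elastic core, was counted 158, 133 and 120 times in the control libraries, 59, 63 and 72 times with thrombin and 110, 105 and 91 times with PD03. In CPM these were 8.59, 8.40 and 7.58, then 3.51, 3.45 and 4.20, then 5.83, 6.80 and 5.57. All 3 groups were apart, with the PD03 libraries between the others. The log2 fold change was -1.14 with thrombin (SE 0.16, adjusted p = 1.5e-07), 0.70 with PD03 against thrombin (SE 0.16, adjusted p = 0.00036) and -0.44 with PD03 against control (SE 0.15, adjusted p = 0.015, not called). At these counts the 95% interval of the rise with PD03 ran from 0.37 to 1.03 on the log2 scale. The rise was not called with glmTreat (adjusted p = 0.65). With 1 or 0.1 added to FPKM, its log2 fold change was 0.34 and 0.56.

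Fbn1 (ENSRNOG00000007302), the main microfibril protein, measured 1569, 1584 and 1591 CPM in the control libraries, 1573, 1516 and 1518 CPM with thrombin and 1655, 1651 and 1732 CPM with PD03. The control and thrombin libraries overlapped, and the PD03 libraries lay above both in CPM. In FPKM the PD03 libraries (164.5 to 171.7) overlapped both control (169.8 to 170.9) and thrombin (161.2 to 167.8). With thrombin the log2 fold change was -0.04 (95% interval -0.10 to 0.02, adjusted p = 0.33). With PD03 it was 0.13 against thrombin (adjusted p = 0.00046), and against control it was 0.09 (adjusted p = 0.021), which turned to -0.03 when libraries were scaled by their totals.

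Fbln5 (ENSRNOG00000050539), which tethers elastin to microfibrils and cells, was lowest with thrombin and highest with PD03. It measured 183, 174 and 171 CPM in the control libraries, 155, 148 and 158 CPM with thrombin and 198, 202 and 203 CPM with PD03. The groups did not overlap in CPM, but the differences stayed within the fold threshold. In FPKM, control (64.9 to 70.6) and PD03 (69.7 to 71.2) overlapped. The log2 fold change was -0.20 with thrombin (SE 0.04, adjusted p = 2.0e-04), 0.39 with PD03 against thrombin (SE 0.04, adjusted p = 1.1e-10) and 0.19 with PD03 against control (adjusted p = 2.0e-04).

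Ratios of 2 genes within a library do not depend on how libraries are scaled, and 6 such ratios of raw counts were compared between groups. Since raw counts grow with gene length, a ratio does not give the relative level of its 2 genes. For each Thbs2 count there were 1.41 to 1.51 Thbs1 counts in the control libraries, 2.10 to 2.40 in the thrombin libraries and 0.967 to 1.05 in the PD03 libraries. The ratio was thus highest with thrombin and lowest with PD03, with no overlap, and its log2 value was 0.65 higher with thrombin than in control and fell by 1.17 with PD03 against thrombin. The ratio of Fn1 to Sparc was 2.92 to 3.04 in the control libraries, 2.86 to 2.96 in the thrombin libraries and 1.62 to 1.70 in the PD03 libraries. On the log2 scale it fell by 0.81 with PD03 against thrombin, while control and thrombin overlapped.

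Within the tenascins, the ratio of Tnc to Tnn declined from 10.8 to 10.98 in the control libraries through 9.15 to 9.46 with thrombin to 7.85 to 8.16 with PD03. The ratio of Tnc to Postn was 62.7 to 64.6 with thrombin, below the other groups, whereas control (78.9 to 87.3) and PD03 (82.8 to 86.7) overlapped. Eln had 0.00476 to 0.00548 counts for each Fbn1 count in the control libraries, 0.00223 to 0.00276 with thrombin and 0.00322 to 0.00412 with PD03. The ratio of Fbln5 to Eln was 20.7 to 22.6, 37.5 to 44.3 and 29.7 to 36.4 in the same order of groups. In 16 of the 18 tests the groups did not overlap and the exact permutation p was 0.1, the smallest that 3 libraries against 3 allow (two-sided, adjusted p = 0.1125 over 18 tests). The other two were Tnc to Postn between PD03 and control (exact permutation p = 0.9) and Fn1 to Sparc between thrombin and control (exact permutation p = 0.3).

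**Figure D4:**
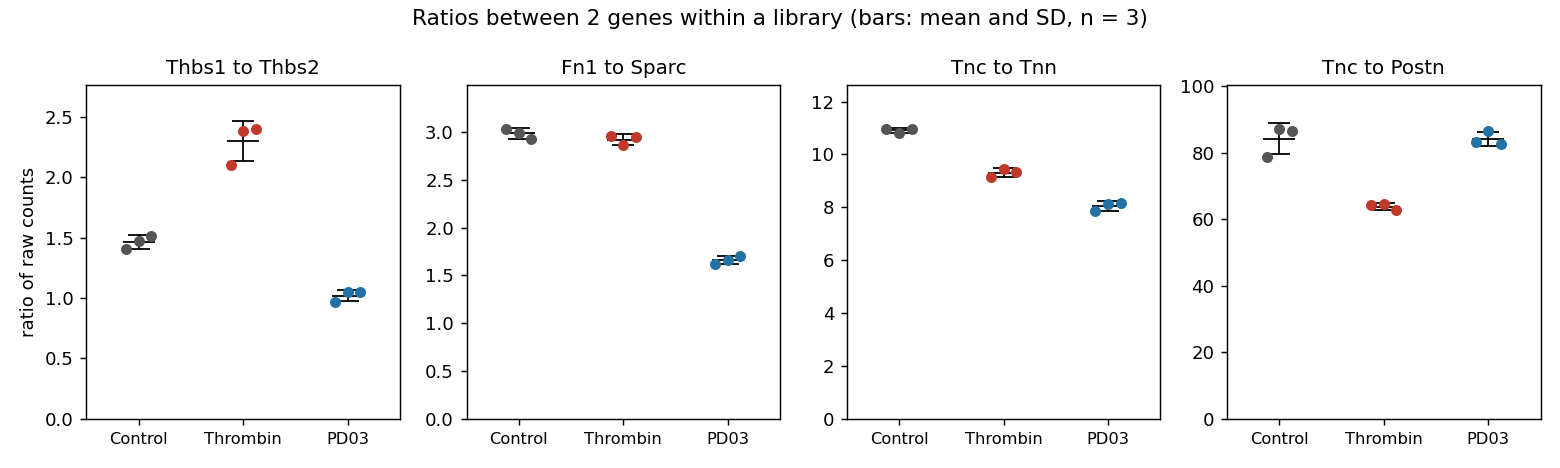
Ratios of the raw counts of 2 genes within each library for 4 pairs, one point per library, with bars for the mean and SD of 3 libraries and axes that start at 0. The ratio of Thbs1 to Thbs2 is highest with thrombin and lowest with PD03, and the ratio of Fn1 to Sparc separates the PD03 libraries from the other 6.

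Of a list of 20 other matricellular genes, 15 were tested, and thrombin raised 3 and lowered 2 (median log2 fold change -0.07, with 2.62% of all genes called higher and 5.44% lower). PD03 against thrombin raised 7 and lowered 2 (median 0.54, beside 0.01 for all genes, of which 9.61% were called higher and 6.31% lower). PD03 against control raised 7 and lowered none (median 0.50, with 4.9% and 4.07% of all genes called). Ccn3, a cysteine-rich relative of connective tissue growth factor, had 61.9 ± 2.53 CPM in control, 9.76 ± 0.587 with thrombin and 121 ± 0.707 with PD03, a rise of 12.4-fold over thrombin (log2 fold change 3.63, SE 0.07, adjusted p = 6.4e-36). Comp (thrombospondin 5), a cartilage and tendon protein, rose 4.47-fold with PD03 over thrombin, from 2.44 ± 0.306 to 10.97 ± 0.226 CPM. Thbs4, another thrombospondin of tendon, stood at 3.86 ± 0.211 CPM in the control group, 5.74 ± 0.412 with thrombin and 9.95 ± 0.238 with PD03, and was called higher with PD03 in both comparisons. The calcium-binding Smoc1, a relative of Sparc, rose 2.86-fold over thrombin to 34.2 ± 1.06 CPM.

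Osteopontin (Spp1), a phosphoprotein of mineralized matrix, moved the opposite way, with 185 ± 1.10 CPM with thrombin and 53.1 ± 0.424 CPM with PD03 (log2 fold change -1.80, adjusted p = 7.3e-31). Spock2, at about 1 CPM, was called higher with PD03 against control (log2 1.18, adjusted p = 0.019), but not by DESeq2 (adjusted p = 0.0572) nor without PD03 replicate 3 (adjusted p = 0.206) or Control replicate 2 (adjusted p = 0.0741). Tgfbi, a fasciclin-domain relative of periostin picked out after its values were seen, stood at 65.3 ± 1.74 CPM in the control group, 125 ± 3.30 with thrombin and 125 ± 3.89 with PD03. It was called higher in both groups against control (log2 fold changes 0.94 and 0.93), with -0.01 between them.

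Of 22 other elastic fibre genes, 21 were tested, and thrombin raised 1 and lowered 3 (median log2 fold change 0.04), beside 2.62% and 5.44% of all genes. PD03 against thrombin raised 5 and lowered 2 (median -0.01), beside 9.61% and 6.31%. PD03 against control raised 3 and lowered 1 (median 0.15), but 1 and 2 with library totals, beside 4.9% and 4.07%. The microfibril-associated genes Mfap5 and Mfap2 fell with thrombin (log2 -1.16 and -1.11) and rose with PD03 over thrombin (1.47 and 1.58). Mfap5 went from 253 ± 12.2 CPM in the control group through 113 ± 3.48 to 312 ± 6.85 CPM, and Mfap2 from 17.3 ± 1.25 through 8.01 ± 1.44 to 24.1 ± 2.29 CPM. Efemp1 (fibulin 3) fell with thrombin from 3.84 ± 0.485 to 1.26 ± 0.270 CPM (adjusted p = 9.5e-07). Ltbp1, which stores latent TGF-β on microfibrils, was lowered by PD03 from 265 ± 8.54 to 114 ± 7.13 CPM (log2 -1.21, adjusted p = 7.0e-26). The fibulin relative Hmcn1 rose with PD03 over thrombin (log2 0.91), and the cross-linking enzyme gene Loxl2 rose with PD03 over control from 324 ± 8.40 to 566 ± 15.9 CPM (log2 0.81, adjusted p = 2.5e-22).

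Of 14 genes for receptors of these proteins, 12 were tested. Thrombin raised 1 and lowered 2, where 8.06% of all genes were called. PD03 against thrombin raised 3 and lowered 2, where 15.9% were called. PD03 against control raised 2 and lowered 1, or 2 and 2 with library totals, where 8.97% were called. Itga8, the α chain of an integrin that binds fibronectin and tenascin C, fell with thrombin, from 156 ± 5.02 to 74.7 ± 4.11 CPM, and rose to 322 ± 13.5 CPM with PD03 (log2 fold changes -1.07 and 2.11, adjusted p = 2.0e-22 and 1.3e-33). Itgb8 had log2 fold changes of -0.73 and 0.76 in the same comparisons, and the second was not called with glmTreat (adjusted p = 0.265) or from FPKM with 1 added (log2 0.388). Itgb3, which pairs with αv, rose with thrombin from 14.5 ± 1.65 to 22.8 ± 2.14 CPM (log2 0.66, adjusted p = 6.1e-07, but 0.577 and not called without Thrombin replicate 3, and not called with glmTreat, adjusted p = 1, or from FPKM with 1 added, log2 0.559). Syndecan 4 (Sdc4), a co-receptor for fibronectin, was lowered by PD03 from 321 ± 27.9 to 203 ± 21.3 CPM (log2 -0.66, adjusted p = 5.4e-14, but -0.576 and not called without PD03 replicate 1, and not called with glmTreat, adjusted p = 0.19). The low-level integrin genes Itga9 and Itga4 were called higher and lower with PD03 against control, with log2 fold changes of 1.62 and -1.53 and no group mean above 4 CPM. Neither was called from FPKM with 1 added (log2 0.44 and -0.449), and both fell out of the test when a mean count of 50 was required.

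**Figure D5:**
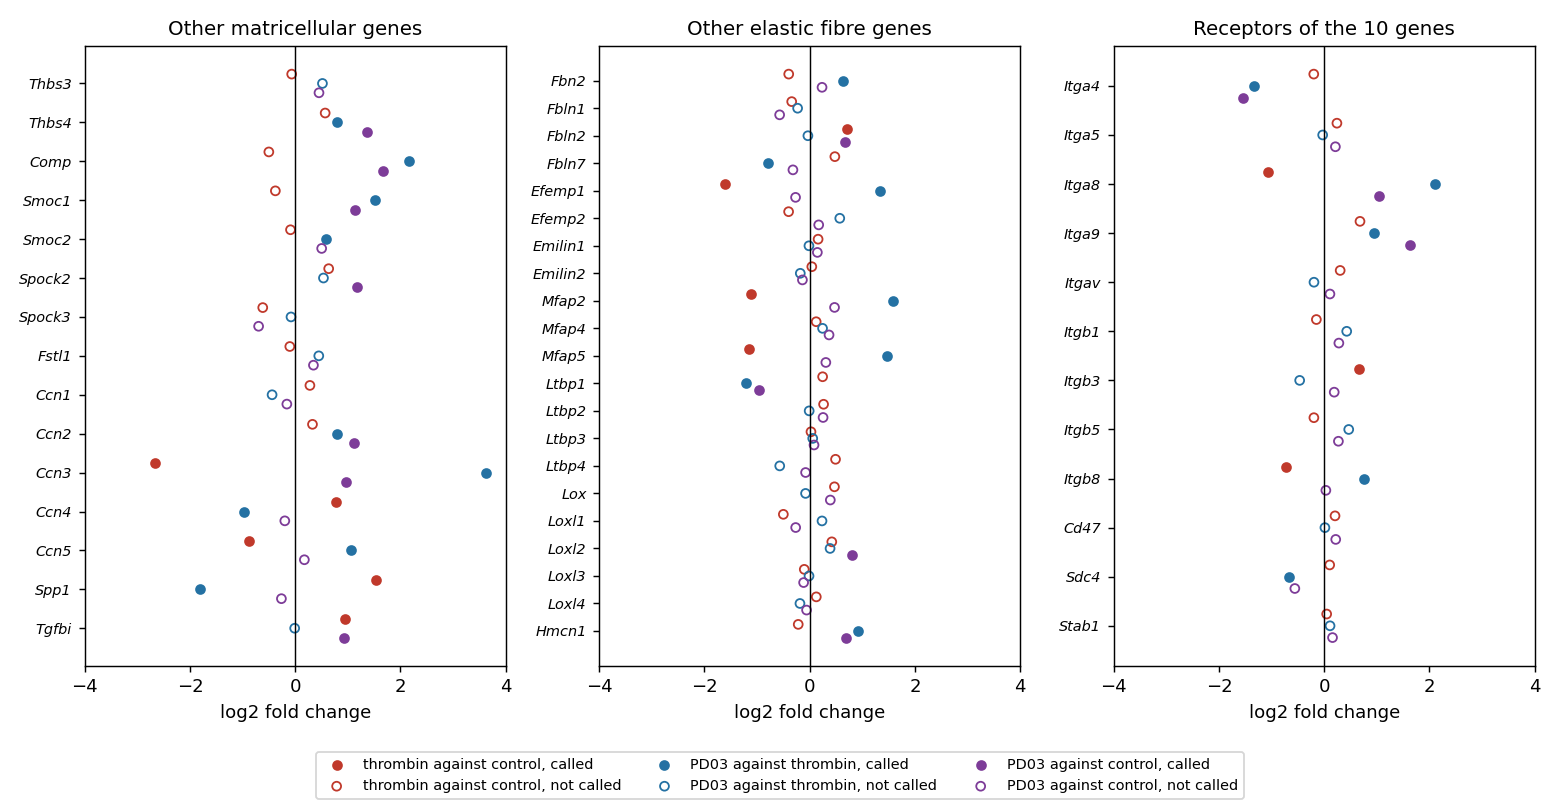
Log2 fold changes of the tested genes of 3 lists (other matricellular genes, other elastic fibre genes and receptors of the 10 genes) in the 3 comparisons, with filled points for called genes and open points for the rest. Ccn3 has the largest fold change of the 3 lists, and most genes of the elastic fibre list lie within 1 log2 unit of 0.

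Similar patterns were looked for by Pearson's correlation of log2 CPM over the 9 libraries, which share their 3 groups. For Eln, with the largest absolute fold change with thrombin, the closest genes were Aldh3a2 (r = 0.985), the potassium channel gene Kcnt2 (r = 0.983) and Gyg1 (r = 0.978), of which Kcnt2 stood at 1.14 ± 0.108 CPM in the control group, 0.328 ± 0.0976 with thrombin and 0.737 ± 0.214 with PD03. For Thbs2, with the largest with PD03 against thrombin, they were Palldl1 (r = 0.999), the smooth muscle actin-binding gene Lmod1 (r = 0.998) and Ube2h (r = 0.997). Lmod1 stood at 8.90 ± 0.515, 6.55 ± 0.380 and 46.9 ± 0.9753 CPM in the same order of groups.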

How the data were processed

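RNA was sequenced by the authors in 9 libraries, 3 per group. The paper describes trimming with fastp, alignment with HISAT2 to Rnor_6.0 and counting with featureCounts, whereas the submitters' processing notes name HISAT2, HTSeq 0.13.5 and mRatBN7.2. Annotation release and strand setting: not given in the sources used here. In RefSeq (GRCr8), 5 of the 10 genes (Tnc, Tnn, Thbs1, Eln and Fbn1) overlap 1 long non-coding RNA each, and reads of the pairs may not be told apart. The authors deposited raw counts and FPKM values per gene and library, and the FPKM values follow the library totals. Levels of different genes were ranked by FPKM, and ratios of raw counts of 2 genes were compared only between groups.

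From the counts, genes were kept by edgeR's filterByExpr (minimum count 10), libraries were scaled by TMM, and all 9 were fitted with edgeR's quasi-likelihood method (R 4.3.3, edgeR 4.0.16, limma 3.58.1, DESeq2 1.42.0; figures with Python 3.11.15 and matplotlib 3.10.9). The study's methods use DESeq2 with the same thresholds, which was run as an alternative. Adjusted p-values are Benjamini-Hochberg values across the 13256 genes tested. The procedure was tested on simulated data with planted changes larger than most of those of the 10 genes. That test therefore does not cover small changes. Precision was limited by counting for Eln, and no replicates were identical or within sampling noise of each other (chi-square over its degrees of freedom, 1.82 to 3.99). In each group replicates 2 and 3 were closest (1.82 to 2.13), and replicate 1 stood apart from both (3.02 to 3.99).

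The 10 genes and the lists were chosen with earlier results of these data known. Beside the 10 genes, the text names from each of 3 lists the 6 called genes with the largest absolute log2 fold change, provided that libraries did not overlap and the higher group's mean reached 1 CPM. By the same rule 3 MEK-responsive genes are named for PD03 against thrombin, and for 2 of the 10 genes the 3 tested genes with the highest correlation. Alternatives covered scaling, filter, test, fold threshold, FPKM with 1 or 0.1 added, the 2 groups alone, a replicate block and each library left out.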

Additional observations from a re-analysis of the deposited data

How the results depend on the processing

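Called members numbered 2 higher and 1 lower with thrombin, 3 and 0 with PD03 against thrombin, and 2 and 0 with PD03 against control. With no fold threshold these became 4 and 5, 6 and 3, and 8 and 2. With an absolute log2 fold change above 1 required, none was called higher in any comparison. With thrombin, 1 was called higher with glmTreat and 1 from FPKM with 1 added, and leaving out 1 library at a time gave 1 to 2. With PD03 against thrombin, the call of Eln was lost with glmTreat and from FPKM with 1 or 0.1 added. With PD03 against control, Sparc was also called higher without Control replicate 3. Of the member fold changes under other settings, 6 changed sign. The log2 fold change of Tnc with PD03 against thrombin became -0.0365 with library totals and -0.0375 from FPKM with 1 or 0.1 added. That of Fbn1 with PD03 against control became -0.0296 with library totals, and -0.0296 and -0.0298 from FPKM with 1 and 0.1 added. The log2 ratio of Tnc to Postn differed by 0.00162 between PD03 and control, and by -0.0448 to 0.0284 with 1 library left out. The share of the 10 genes differed by 0.126 percentage points with thrombin and 0.302 with PD03 against thrombin when taken from summed FPKM. Without the counts of Col1a1 in the total, it differed by 0.262 with PD03 against thrombin and 0.563 with PD03 against control. With the replicate number as a block, 2 higher and 1 lower, 3 and 0, and 2 and 0 members were called. Deviations of same-numbered libraries correlated at -0.04 to 0.07 over 9 pairs. The numbers were not taken as pairs in the main fit. That correlation weighs all tested genes alike, those with low counts included, so it cannot settle whether same-numbered samples were paired.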

Other observations

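Among replicates, Thbs1 was lowest in replicate 1 of each group, at 6538 CPM in the control group, 8892 CPM with thrombin and 7289 CPM with PD03, where the other 6 libraries held 6943 to 6996, 9699 to 9823 and 8022 to 8138.5 CPM. Tnc was also lowest in replicate 1 of each group, at 10160, 13324 and 13362 CPM. Both genes were picked out after their values were seen, and how many of all genes share this pattern was not counted.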
